A study of Mus musculus with 9 samples.

Results

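The genes described here are 44 mouse genes of glutathione metabolism and antioxidant defence, selected by gene symbol from a deposited table of 16399 genes. Of the 44, 43 were listed, and 39 reached at least 1 TPM (a gene's transcript abundance per length, scaled to the same total in every library) in at least 3 of the 9 libraries and were tested with all other genes that passed, 11287 in total. The other 5 were not tested: Gpx3 was listed at 0.07 to 0.94 TPM, Gstt2 at 0 to 0.45 TPM, Gpx7 at 0 to 0.12 TPM and Gstm6 at 0 in 8 libraries and 0.11 TPM in the other, and Gstt1 was not analysed here.

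Poly(A) RNA of cultured MC38 cells, a mouse colon carcinoma line, was sequenced in 3 groups of 3 libraries, which the authors describe as biological replicates. MC38-P is the parental line. MC38-LM3a and MC38-LM3b are derivatives recovered from liver metastases after 3 rounds of intrasplenic injection into immunocompetent C57BL/6 mice, and the authors call them independently derived. The paper names a single MC38 line for each earlier round, and whether the derivatives share those rounds is not stated. All 3 lines carry GFP and firefly luciferase, and the 3 libraries of a derivative come from a single line, so they sample cultures of that line and not further selections. The comparisons below ask how transcript levels of antioxidant genes differed between each derivative and the parental cells, and between the derivatives.

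Glutathione is a tripeptide of glutamate, cysteine and glycine. Glutamate-cysteine ligase (catalytic subunit Gclc, modifier subunit Gclm) and glutathione synthetase (Gss) make it, the cystine-glutamate antiporter Slc7a11 brings in cystine for it, and glutathione reductase (Gsr) returns the oxidized form with electrons from NADPH. Glutathione peroxidases use it to reduce peroxides, and glutathione transferases couple it to electrophiles. Thioredoxin, thioredoxin reductase and the peroxiredoxins form a parallel thiol system, while superoxide dismutases and catalase act without glutathione. Many of these genes are targets of the transcription factor Nrf2 (encoded by Nfe2l2), which Keap1 holds for degradation until oxidants or electrophiles modify it.

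The labels give the cells as colon epithelial, and of 8 epithelial markers the keratins Krt8, Krt18 and Krt19 were abundant, whereas Cdh1 (E-cadherin) and Vil1 (villin) were at most 0.08 and 0.13 TPM. The summed level of the 8 markers was 2003 to 2318 TPM in MC38-P, 1592 to 1811 TPM in MC38-LM3a and 1584 to 1629 TPM in MC38-LM3b, a fall carried in TPM by Krt8 and Krt18. On the log2 scale the widest falls among them were those of Epcam (-1.14 and -1.07, limma adjusted p 9.61e-05 and 0.000104) and Cdx2 (1.80 to 2.86 TPM in MC38-P and 0.28 to 0.92 TPM in the derivatives, limma adjusted p 0.00101 and 0.000231), both lower in all 6 derivative libraries, while Krt19 and Krt20 were called higher in MC38-LM3a (0.39 and 0.55, limma adjusted p 0.00358 and 0.0344). The 4 hepatocyte markers listed summed to at most 0.82 TPM in any library, and of 5 macrophage markers only Cd68 reached 1 TPM, at 27.7 to 29.5 TPM in MC38-P and 34.1 to 45.6 TPM in the derivatives, where it was called higher (0.33 and 0.57, limma adjusted p 0.022 and 0.000795). The 4 fibroblast markers listed summed to 12.3 to 19.1 TPM in MC38-P, 5.88 to 8.15 TPM in MC38-LM3a and 8.97 to 9.25 TPM in MC38-LM3b, with Col1a1 lower in both (-1.55 and -1.48, limma adjusted p 9.81e-05 and 9.91e-05) and Pdgfrb higher in MC38-LM3b (0.88, limma adjusted p = 0.000695), at 3.48 to 3.80 TPM against a parental mean of 1.54 TPM. The part of these marker differences in the results was not tested. MC38-P replicate 3 and MC38-LM3a replicate 3 stood apart from the other libraries of their groups along transcript length. Across 11096 genes the deviations of both from their groups had a Spearman correlation with length of -0.65 and 0.67. The other libraries deviated the opposite way, at 0.54 and 0.43 in MC38-P and -0.58 and -0.54 in MC38-LM3a. In MC38-LM3b the correlations were -0.02 to 0.02. All are given as a description without a p-value because genes of a library are not independent. Against MC38-P, the median gene of the whole table shifted by -0.00 on the log2 scale for MC38-LM3a and by 0.21 for MC38-LM3b, so a member that rose by less than 0.21 in MC38-LM3b rose by less than the median gene.

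The antioxidant genes moved in both directions, with Slc7a11, Nqo1, Mgst1 and Prdx3 lower and Gstm7, Gstm2, Mgst2, Gpx8, Srxn1, Prdx5 and Cat higher in both derivatives. The 43 listed members took up 0.797% to 0.851% of all TPM in the parental libraries, 0.842% to 0.939% in those of MC38-LM3a and 0.847% to 0.849% in those of MC38-LM3b, and 19 of them averaged at least 100 TPM in all 3 groups. In MC38-LM3a, 17 of the 39 tested members (43.6%) changed against MC38-P at an adjusted p under 0.05 (limma, adjusted over all tested genes), where 28.0% of all genes did. Of these, 10 members rose and 7 fell, or 25.6% and 17.9%, against 14.1% higher and 13.8% lower among all genes. With values corrected for GC content and length, 11 rose and 10 fell in MC38-LM3a, beside 26.6% and 25.6% of all genes. With each library centred on its median gene, 7 rose and 7 fell, beside 19.8% and 20.1%. Leaving out MC38-LM3a replicate 3 gave 16 higher (14.2% of all genes), and leaving out MC38-P replicate 2 gave 3 lower (8.57%). In MC38-LM3b, 16 members (41%) changed, near the 46.7% of all genes, and 10 rose and 6 fell, or 25.6% and 15.4%, against a background of 35.6% and 11.2%. At an unadjusted p under 0.05 the members numbered 22 in MC38-LM3a, where 38.5% of all genes passed, and 20 in MC38-LM3b, where 55.2% did. In both derivatives together, 7 members rose (13.3% of all genes did) and 4 fell (9.07% of all genes), shares of 17.9% and 10.3% that lie near the background. The 6 derivative libraries all lay above the 3 parental ones in 11 members (19.1% of all genes) and all below them in 5 (12.3% of all genes). The median log2 fold change of the 39 members was 0.13 for MC38-LM3a and 0.09 for MC38-LM3b, and the latter turned to -0.13 with each library centred on its median gene and to -0.03 with values corrected for GC content and length. In bulk RNA a change per cell and a change in the share of cells that express a gene cannot be told apart. Both comparisons use the same MC38-P libraries, so their values are set side by side and not counted as independent. When each library was centred on its median gene, the MC38-LM3b calls became 4 higher and 14 lower, beside 22.9% and 26.4% of all genes, in place of the split of 10 and 6.

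**Figure D1:**
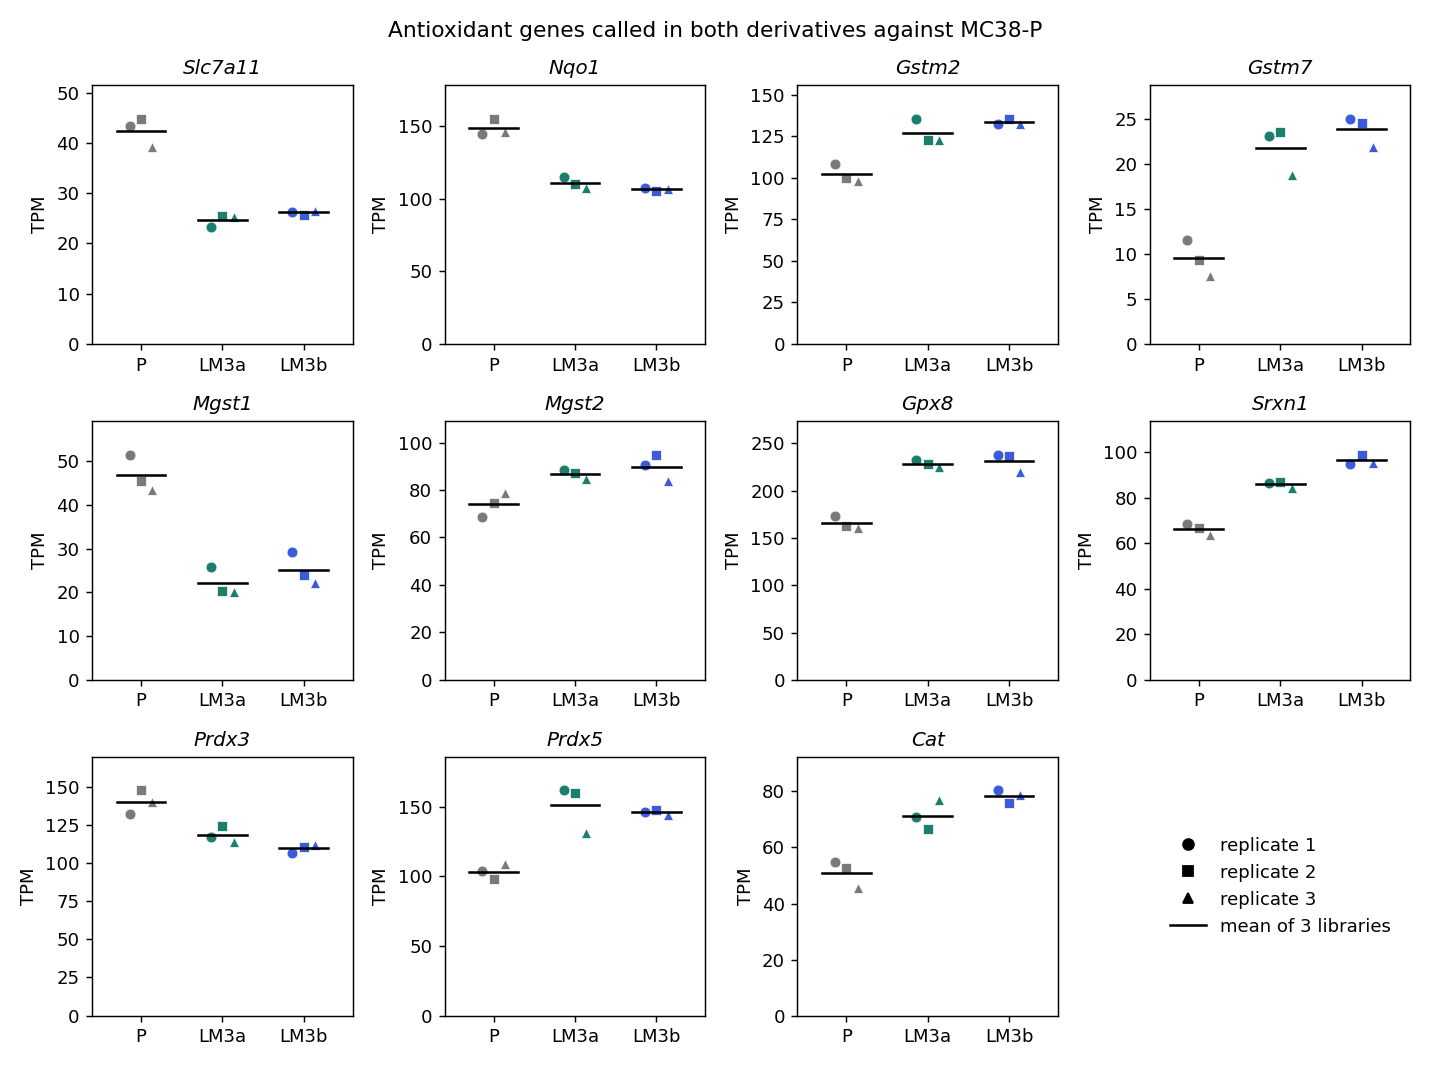
TPM (vertical axes, from 0) of the 11 antioxidant genes called in both derivatives, with 1 point per library, shapes for the replicate number and bars for the mean of 3 libraries. Slc7a11, Nqo1, Mgst1 and Prdx3 sit lower in all 6 derivative libraries than in the 3 MC38-P libraries, and the other 7 genes sit higher.

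Among the genes of glutathione synthesis, recycling and cystine uptake, the clearest change was a fall of Slc7a11, the light chain of the cystine-glutamate antiporter (NCBI Gene 26570). It stood at 43.4, 44.8 and 39.1 TPM in MC38-P, at 23.2, 25.5 and 25.2 TPM in MC38-LM3a and at 26.3, 25.7 and 26.5 TPM in MC38-LM3b. Every derivative library was below every parental library, and the parental mean was 1.72 times that of MC38-LM3a and 1.62 times that of MC38-LM3b. Its log2 fold changes were -0.76 ± 0.08 (SE, 3 libraries per group) for MC38-LM3a and -0.68 ± 0.08 for MC38-LM3b, with limma adjusted p-values of 9.16e-05 and 0.000138. Its partner in the transporter, the heavy chain Slc3a2, fell by less, with log2 fold changes of -0.28 and -0.26 (limma adjusted p 0.00639 and 0.00719).

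The ligase itself moved less evenly. Gclc stood at 50.1, 49.7 and 38.3 TPM in MC38-P, at 32.1, 28.2 and 39.5 TPM in MC38-LM3a and at 40.4, 39.6 and 42.0 TPM in MC38-LM3b. Replicate 3 of MC38-P lay below replicate 3 of MC38-LM3a, so the groups overlapped, and these are the libraries that stood apart along transcript length. The log2 fold change of Gclc was -0.46 ± 0.13 in MC38-LM3a (limma adjusted p = 0.0247, called under 12 of 18 alternative settings and at -0.44 to -0.35 when lost without MC38-P or MC38-LM3a replicate 1 or 2) and -0.16 ± 0.13 in MC38-LM3b (limma adjusted p = 0.317). With values corrected for GC content and length, the fall was called in each, at -0.47 for MC38-LM3a and -0.38 for MC38-LM3b (limma adjusted p 0.000148 and 0.000517). Gclm did not pass in either derivative before this correction, with log2 fold changes of -0.22 and -0.05, and passed as lower in both after it (-0.20 and -0.34, limma adjusted p 0.0104 and 0.000324), as it did with quantile normalization and with centring.

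Gsr, the most abundant gene of this group over the 9 libraries, although Gclm averaged slightly more in MC38-P, stood at 110.1, 103 and 96.2 TPM in MC38-P, at 95.0, 90.1 and 103 TPM in MC38-LM3a and at 109, 109.9 and 107 TPM in MC38-LM3b. Its ranges overlapped between MC38-P and each derivative, and it was not called (log2 fold change -0.10 and 0.08). After the GC and length correction it was called lower in both (-0.12 and -0.10, limma adjusted p 0.0129 and 0.0288), so the direction in MC38-LM3b turned. Gss ranged from 29.9 to 36.5 TPM over the 9 libraries and was not called either. Thus with uncorrected values of all 9 libraries only Slc7a11 of the 5 genes of this group was called in both derivatives. Gclc and Gclm were also called lower in both with quantile normalization, with centring and without both libraries that stand apart. With the GC and length correction 4 genes (Slc7a11, Gclc, Gclm and Gsr) were called lower in both. In that setting 25.6% of all genes were called lower in MC38-LM3a and 29.3% in MC38-LM3b, against 13.8% and 11.2% without it.

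The transcript of Nrf2 itself showed no call. Nfe2l2 stood at 127.9, 123 and 104 TPM in MC38-P, at 109, 103 and 126 TPM in MC38-LM3a and at 129.9, 131 and 124 TPM in MC38-LM3b, with log2 fold changes of -0.07 ± 0.09 and 0.12 ± 0.09. Keap1, its inhibitor, was 40.4 to 43.4 TPM in MC38-P, 44.2 to 52.4 TPM in MC38-LM3a and 52.4 to 57.6 TPM in MC38-LM3b. All 6 derivative libraries lay above the parental ones, and the rise was called in MC38-LM3b (0.37 ± 0.08, limma adjusted p = 0.00444) and not in MC38-LM3a (0.16 ± 0.08, limma adjusted p = 0.179). With the GC and length correction Keap1 was called in both derivatives, at 0.20 in MC38-LM3a and a smaller 0.14 in MC38-LM3b (limma adjusted p 0.00831 and 0.0445), and it was called in MC38-LM3a with quantile normalization and with centring as well. The Keap1 call in MC38-LM3b was lost after centring and after the GC and length correction with a replicate block, and 10.4% of the 50-base windows of its longest coding transcript also occur in the overlapping gene Gm16754.

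Classical Nrf2 target genes did not move as a block. Nqo1, a quinone reductase often used as a readout of Nrf2 activity (NCBI Gene 18104), stood at 144, 155 and 146 TPM in MC38-P, at 115, 109.9 and 107 TPM in MC38-LM3a and at 107, 105 and 107 TPM in MC38-LM3b. The parental libraries were above all derivative ones, with log2 fold changes of -0.42 ± 0.06 and -0.47 ± 0.06 (limma adjusted p 0.000428 and 0.000149). Hmox1, heme oxygenase 1, went the other way: MC38-P spanned 62.9 to 70.0 TPM, MC38-LM3a 74.9 to 77.1 TPM and MC38-LM3b 77.6 to 89.8 TPM. Its rise was called in MC38-LM3b only (0.30 ± 0.08, limma adjusted p = 0.00835, against 0.20 ± 0.08, limma adjusted p = 0.076), a call lost with quantile normalization and with centring (down to 0.082), while the GC and length correction called it in MC38-LM3a too (0.17, limma adjusted p = 0.0484), and the difference between the derivatives did not pass (0.11, limma adjusted p = 0.281). Srxn1, sulfiredoxin, which reactivates overoxidized peroxiredoxins (NCBI Gene 76650), rose in both. It stood at 68.4, 66.6 and 63.8 TPM in MC38-P, at 86.4, 86.9 and 84.4 TPM in MC38-LM3a and at 94.8, 99.0 and 95.4 TPM in MC38-LM3b. The groups did not overlap, and MC38-LM3b lay above MC38-LM3a in all libraries, an order that was gone after the GC and length correction (difference -0.0099). Its log2 fold changes were 0.37 ± 0.06 and 0.53 ± 0.06 (limma adjusted p 0.00115 and 8.58e-05), the latter lowered to 0.35 by the GC and length correction. Slc7a11 and Nqo1 thus fell while Srxn1 rose in the same 6 libraries, under all 18 alternative settings.

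**Figure D2:**
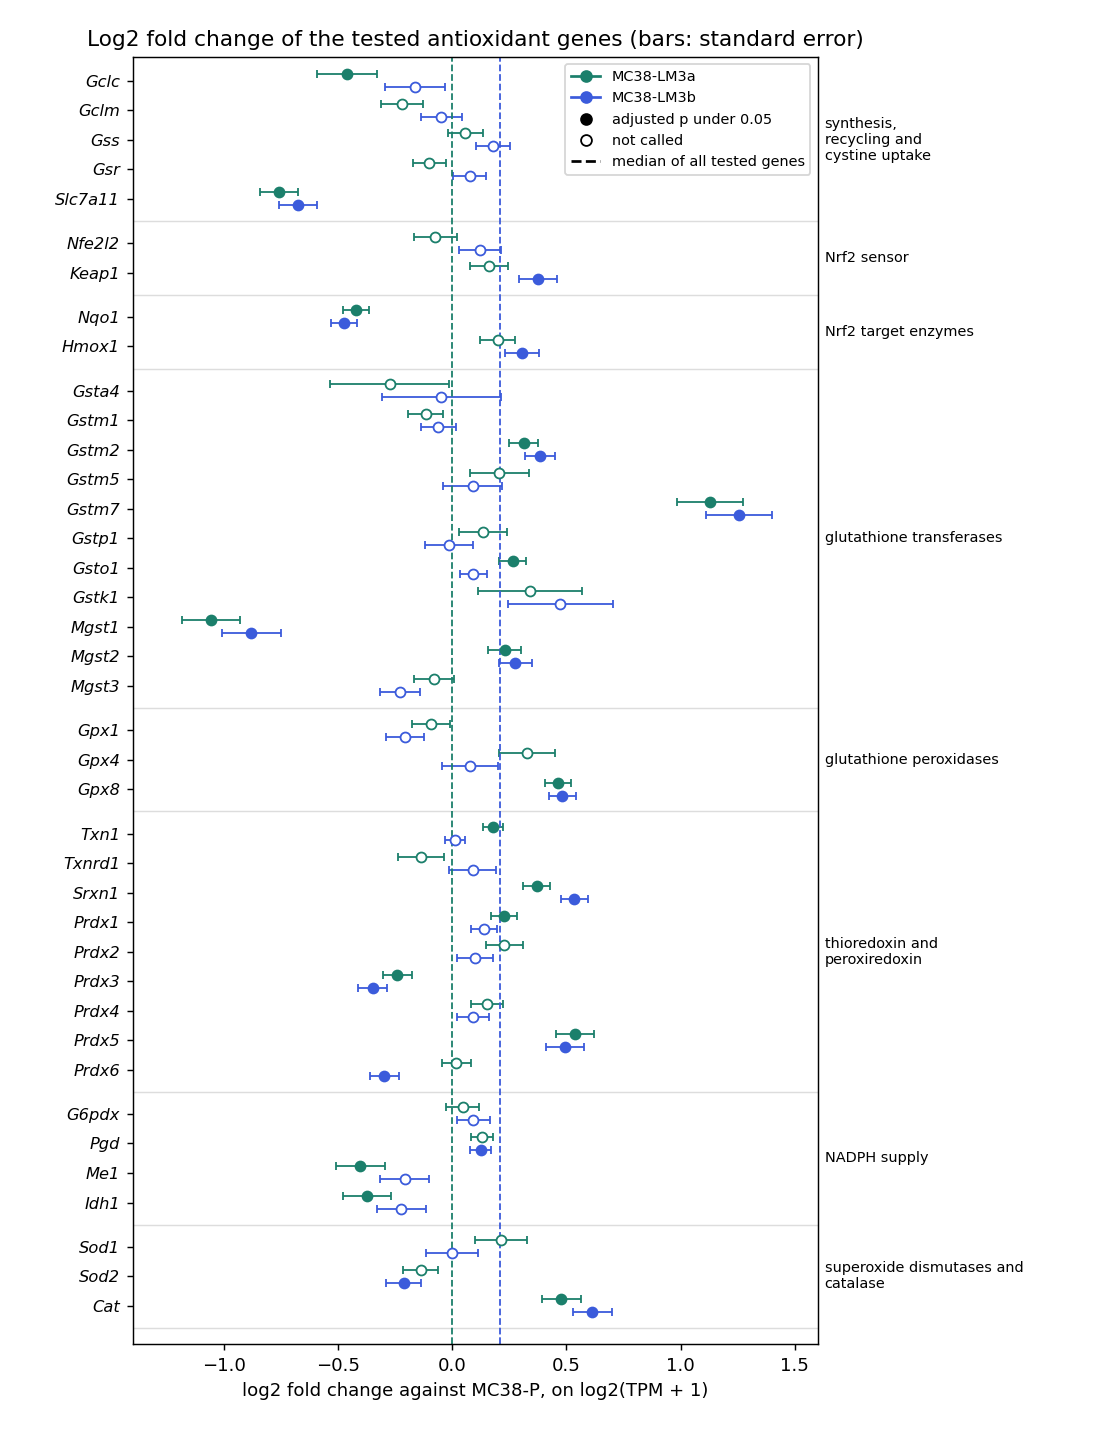
Log2 fold change against MC38-P (horizontal axis, on log2(TPM + 1)) of the 39 tested antioxidant genes, grouped by role, with green points for MC38-LM3a, blue points for MC38-LM3b, filled where the adjusted p was under 0.05 and bars for the standard error. Dashed lines mark the median of all tested genes, -0.00 (green) and 0.21 (blue), and Gstm7 and Mgst1 lie farthest to the right and left.

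The widest changes in the uncorrected values fell in the glutathione transferases. Gstm7, a mu-class cytosolic transferase (NCBI Gene 68312), stood at 11.6, 9.38 and 7.60 TPM in MC38-P, at 23.2, 23.6 and 18.9 TPM in MC38-LM3a and at 25.1, 24.6 and 22.0 TPM in MC38-LM3b. The lowest derivative library was above the highest parental one, and the means were 2.29 and 2.51 times the parental mean. With log2 fold changes of 1.13 ± 0.14 and 1.26 ± 0.14 (limma adjusted p 0.00027 and 9.91e-05), it was the single member with a rise past the rule for a differentially expressed gene (DEG: an adjusted p under 0.05 with a log2 fold change beyond 1 in either direction), which 1.39% of all genes met as higher in MC38-LM3a and 2.76% in MC38-LM3b. Gstm7 was just short of that rule in MC38-LM3a without MC38-P replicate 3 (0.99) and in MC38-LM3b with quantile normalization (0.999). Mgst1, a microsomal transferase that also reduces lipid peroxides (NCBI Gene 56615), went down. It stood at 51.5, 45.5 and 43.5 TPM in MC38-P, at 25.7, 20.4 and 20.1 TPM in MC38-LM3a and at 29.2, 24.1 and 22.0 TPM in MC38-LM3b. The parental and derivative libraries did not overlap. In MC38-LM3a its log2 fold change of -1.06 ± 0.13 was past the DEG rule for lower genes (1.50% of all genes), and in MC38-LM3b that of -0.88 ± 0.13 was short of it, where 1.18% of all genes passed (limma adjusted p 0.000196 and 0.00042). Its side of the DEG rule depended on the setting: in MC38-LM3a it was short of the rule without MC38-P replicate 1 (-0.99) or MC38-LM3a replicate 3 (-0.997), and in MC38-LM3b it was past it with quantile normalization and with centring (both -1.10). Mgst2, a second microsomal family member (NCBI Gene 211666), moved the opposite way by a small amount. It stood at 68.8, 74.7 and 78.8 TPM in MC38-P, at 88.6, 87.4 and 84.8 TPM in MC38-LM3a and at 90.7, 95.0 and 84.0 TPM in MC38-LM3b. The parental libraries were below all derivative ones, with log2 fold changes of 0.23 ± 0.07 and 0.28 ± 0.07 (limma adjusted p 0.0386 and 0.0115), but the call in MC38-LM3a held under only 6 of 18 alternative settings and that in MC38-LM3b under 15.

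The mu-class genes sit together on chromosome 3, in the order Gstm5, Gstm7, Gstm6, Gstm3, Gstm2, Gstm1 and Gstm4, yet neighbours differed in level and in change. Gstm2 (NCBI Gene 14863) stood at 108, 100.05 and 98.3 TPM in MC38-P, at 135, 123 and 123 TPM in MC38-LM3a and at 132, 136 and 132 TPM in MC38-LM3b. It rose without overlap, by 0.31 ± 0.06 and 0.38 ± 0.06 on the log2 scale (limma adjusted p 0.00484 and 0.00103), and the MC38-LM3b call was lost only after centring on the median gene. Gstm1, a neighbour of Gstm2, was 143 to 168 TPM in MC38-P, 139 to 146 TPM in MC38-LM3a and 137 to 160.3 TPM in MC38-LM3b and was not called, and neither was Gstm5 at 15.1 to 22.9 TPM. Gstm4, which is not among the 44 genes, was listed at 2.09 to 2.60 TPM in MC38-P and 4.20 to 5.96 TPM in the derivatives, with log2 fold changes of 0.87 and 0.92 (limma adjusted p 0.000886 and 0.000458). None of the 50-base windows of the longest coding transcripts of Gstm7 and Gstm4 occurs in another gene, against 9.36% for Gstm2, 23.1% for Gstm1 and 14.4% for Gstm5, whose values are less certain to that extent.

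**Figure D3:**
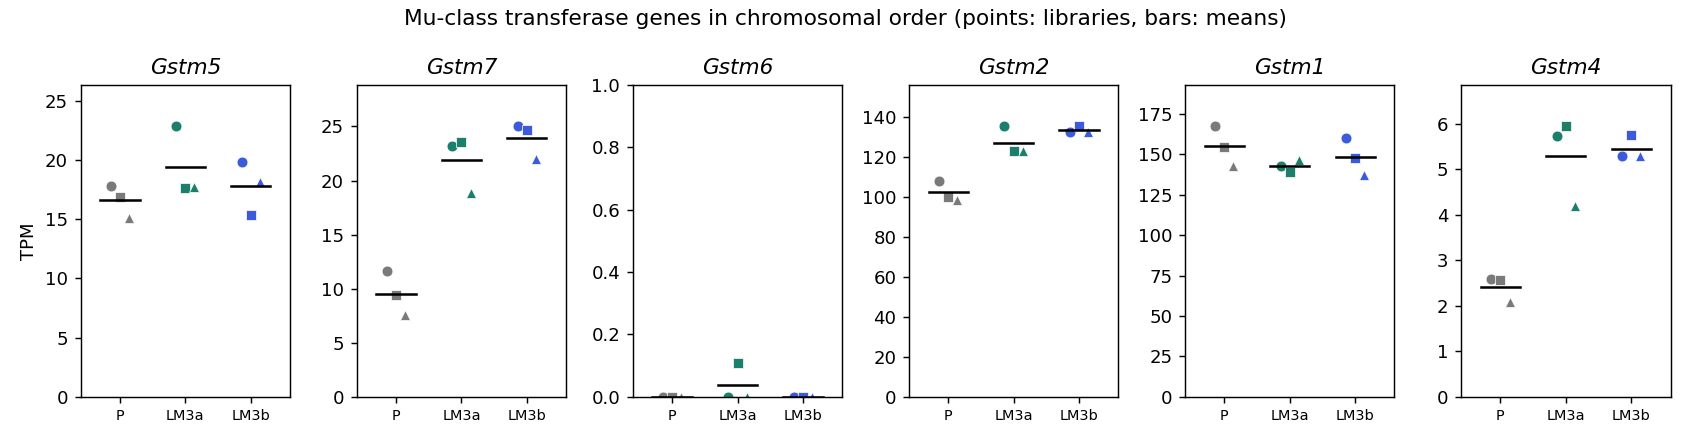
TPM (vertical axes, from 0, each on its own scale) of 6 mu-class transferase genes in their order on chromosome 3, with 1 point per library, shapes for the replicate number as in the plot of genes called in both derivatives, and bars for the mean. Gstm7, Gstm2 and Gstm4 are higher in all 6 derivative libraries than in MC38-P, Gstm5 and Gstm1 overlap, and Gstm6 is at or near 0.

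Among the other transferases only Gsto1 was called. Gstp1, the most abundant member of all, stood at 989, 1068 and 1213 TPM in MC38-P, at 1263, 1337 and 1005 TPM in MC38-LM3a and at 1033, 1092 and 1105 TPM in MC38-LM3b. Replicate 3 of MC38-P and of MC38-LM3a set the overlap, and the log2 fold changes of 0.14 ± 0.10 and -0.01 ± 0.10 were not called. In MC38-LM3a Gstp1 passed as higher without MC38-LM3a replicate 3, and stood at 0.34 without both libraries that stand apart (limma adjusted p = 0.000267). Its level is uncertain, since 62.3% of its 50-base windows also occur in Gstp2 or a Gstp pseudogene. Gsto1, an omega-class transferase with dehydroascorbate reductase activity, was 607 to 686 TPM in MC38-P, 732 to 783 TPM in MC38-LM3a and 668 to 687 TPM in MC38-LM3b, and the rise in MC38-LM3a was called (0.26 ± 0.06, limma adjusted p = 0.00694), a call lost only with centring (limma adjusted p = 0.135). Mgst3 (37.6 to 47.1 TPM), Gsta4 (2.42 to 6.77 TPM) and Gstk1 (0.33 to 1.88 TPM) were not called, although Mgst3 passed as lower in MC38-LM3b under 8 of 18 alternative settings. In all, 3 of the 11 tested transferases rose and 1 fell in both derivatives, beside 13.3% and 9.07% of all genes.

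Promoter windows of 37 of the 44 genes were matched by gene number in RefSeq (build GRCm38.p6, 250 bases before to 50 bases after the start). The letters TGACNNNGC, the core of the antioxidant response element to which Nrf2 binds, were searched on both strands. They occurred in 12 of the 37 genes (32.4%), against 14.0% of 27025 genes with such windows. The AP-1 letters TGACTCA, which can overlap them, occurred in 6 of the 37 (16.2%) against 5.95%. Some genes have several windows, and by window the antioxidant response letters occurred in 12 of 50 for the members, against 12.4% of 32851. The background was not limited to genes tested for expression, and these shares were not tested. Gstm7 and Mgst1, the genes with the widest rise and fall in the uncorrected values (after the GC and length correction Slc7a11 fell more than Mgst1 in MC38-LM3b, -0.98 against -0.96), both carried the antioxidant response letters, and Gclm, Txnrd1 and Prdx1 are shown beside them as members that carried the letters outside any annotated exon. Each stretch reads 5′ to 3′ on the strand of its gene, with the match in capitals. The match is on the gene's strand in Gstm7 and on the opposite strand in the other 4, so there it appears as its reverse complement.
Gstm7: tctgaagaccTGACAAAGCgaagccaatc
Mgst1: gcggggcttgGCACGGTCAggaggcgggg
Gclm: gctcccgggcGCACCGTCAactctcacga
Txnrd1: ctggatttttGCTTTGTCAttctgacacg
Prdx1: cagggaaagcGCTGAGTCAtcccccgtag
The Gstm7 stretch is chr3:107931725-107931753 on the minus strand and lies in a UTR exon of an annotated Gstm7 transcript, and the Mgst1 stretch is chr6:138140461-138140489 on the plus strand and lies in an annotated Mgst1 UTR. The Gclm stretch is chr3:122245413-122245441, the Txnrd1 stretch chr10:82859104-82859132 and the Prdx1 stretch chr4:116685456-116685484, all on the plus strand, and the Prdx1 match overlaps the AP-1 letters. Of the 11 genes called in both derivatives, Gstm7, Mgst1 and Srxn1 held the letters in this window. No match was found for the other 8, which may include genes without a window, and this says nothing of sites elsewhere. A match is a run of letters, and no binding was measured.

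Of the glutathione peroxidases, Gpx8, a peroxidase of the endoplasmic reticulum (NCBI Gene 69590), rose in both derivatives. It stood at 174, 162 and 161 TPM in MC38-P, at 232, 228 and 225 TPM in MC38-LM3a and at 238, 237 and 219.5 TPM in MC38-LM3b. The parental libraries were below all derivative ones by more than the spread within any group, with log2 fold changes of 0.46 ± 0.06 and 0.48 ± 0.06 (limma adjusted p 0.000246 and 0.000131). Gpx4, which reduces lipid hydroperoxides in membranes and guards against ferroptosis, stood at 559.8, 579 and 721 TPM in MC38-P, at 839, 866 and 632 TPM in MC38-LM3a and at 671, 649 and 631 TPM in MC38-LM3b. Replicate 3 of MC38-P and of MC38-LM3a again crossed, and it was not called (0.33 ± 0.12 and 0.08 ± 0.12, limma adjusted p 0.0715 and 0.611). After the GC and length correction its log2 fold change in MC38-LM3a was 0.34 and passed (limma adjusted p = 0.00611), and it passed without MC38-P replicate 3 or MC38-LM3a replicate 3 (0.58 without both), although 61.7% of its windows also occur in the pseudogene Gpx4-ps2. Gpx1, the main cytosolic peroxidase, ranged from 262 to 343 TPM and was not called, but passed as lower in MC38-LM3b under 8 of 18 alternative settings.

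In the thioredoxin and peroxiredoxin group, 2 of 9 genes rose and 1 fell in both derivatives, beside 13.3% and 9.07% of all genes. Srxn1 is given above. Prdx5, a peroxiredoxin of mitochondria, peroxisomes and cytosol (NCBI Gene 54683), stood at 104, 98.0 and 109 TPM in MC38-P, at 162, 160.2 and 132 TPM in MC38-LM3a and at 146, 148 and 144 TPM in MC38-LM3b. All derivative libraries were above the parental ones, by 0.54 ± 0.08 and 0.49 ± 0.08 on the log2 scale (limma adjusted p 0.000875 and 0.000991). The call in MC38-LM3b was lost after centring, and 29.7% of the Prdx5 windows also occur in the overlapping gene Trmt112. Prdx3, the peroxiredoxin confined to mitochondria (NCBI Gene 11757), fell. It stood at 132, 148 and 140.2 TPM in MC38-P, at 117, 125 and 114 TPM in MC38-LM3a and at 106, 111 and 112 TPM in MC38-LM3b. The groups were separate, with log2 fold changes of -0.24 ± 0.06 and -0.35 ± 0.06 (limma adjusted p 0.0184 and 0.00172), the former called under 14 of 18 alternative settings.

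Txn1, cytosolic thioredoxin and the most abundant gene of the group on average, stood at 857, 850.3 and 858 TPM in MC38-P, at 972, 969.6 and 963 TPM in MC38-LM3a and at 874, 856 and 855 TPM in MC38-LM3b. Its 3 MC38-LM3a libraries were above all others, while MC38-LM3b overlapped MC38-P, and the rise was called in MC38-LM3a (0.18 ± 0.04, limma adjusted p = 0.0115). That call was lost in the fit of only the 2 groups, with centring and with the block and offsets together, and the GC and length correction lowered the change to 0.10. Prdx1 rose in MC38-LM3a (0.22 ± 0.06, limma adjusted p = 0.014) from a parental 767 to 834 TPM to 890.3 to 991 TPM, and was 879 to 902 TPM in MC38-LM3b, where it was not called (0.14 ± 0.06, limma adjusted p = 0.0683). The Prdx1 call in MC38-LM3a held under 12 of 18 alternative settings and was lost with the GC and length correction (0.16, limma adjusted p = 0.165), which turned the direction in MC38-LM3b to -0.07. Prdx6, which also has phospholipase activity, was 176 to 192 TPM in MC38-P and 177 to 196 TPM in MC38-LM3a but 148 to 156 TPM in MC38-LM3b. It fell in MC38-LM3b (-0.30 ± 0.06, limma adjusted p = 0.00338), a call kept under all 18 alternative settings and moved to -0.47 by the GC and length correction, and did not differ detectably in MC38-LM3a (0.02 ± 0.06). Prdx2, Prdx4 and Txnrd1 were not called in either derivative, at 216 to 288, 153 to 185 and 205 to 272 TPM. Prdx2 and Prdx4 passed as higher in MC38-LM3a without MC38-LM3a replicate 3 (0.35 and 0.26 without both libraries that stand apart), and Prdx4 in MC38-LM3b with the GC and length correction (0.10, limma adjusted p = 0.0442). After the GC and length correction Txnrd1 was called lower in both (-0.14 and -0.13, limma adjusted p 0.0164 and 0.0209), where its log2 fold changes before it were -0.14 and 0.09.

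The 4 enzymes that supply cytosolic NADPH showed no call common to both derivatives. Pgd, of the oxidative pentose phosphate pathway and the most abundant of them, stood at 430.4, 418 and 421 TPM in MC38-P, at 468, 467 and 455 TPM in MC38-LM3a and at 463, 463 and 459 TPM in MC38-LM3b. All derivative libraries were above the parental ones, but the shift was 0.13 ± 0.05 in MC38-LM3a (limma adjusted p = 0.059) and 0.12 ± 0.05 in MC38-LM3b (limma adjusted p = 0.0475), less than the median gene rose there, and it turned to -0.10 after centring and -0.02 after the GC and length correction. Malic enzyme Me1 and isocitrate dehydrogenase Idh1 fell in MC38-LM3a, by 0.40 and 0.37 on the log2 scale (limma adjusted p 0.0183 and 0.0232), calls lost without MC38-P replicate 1 or 2 or MC38-LM3a replicate 2, with 56.7 to 71.7 and 55.1 to 60.9 TPM against 71.1 to 90.8 and 64.4 to 89.3 TPM in MC38-P. In MC38-LM3b their log2 fold changes were -0.21 and -0.22 and not called, but both passed after the GC and length correction, at -0.43 and -0.41. The values of Me1 are less certain, since 32.8% of its 50-base windows also occur in other genes, such as Gm7049. G6pdx, the entry enzyme of the same pathway as Pgd, ranged from 88.7 to 105 TPM and was not called.

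Among superoxide dismutases and catalase, catalase rose in both derivatives. Cat (NCBI Gene 12359), the peroxisomal enzyme that splits hydrogen peroxide, stood at 54.7, 52.6 and 45.7 TPM in MC38-P, at 70.7, 66.5 and 76.8 TPM in MC38-LM3a and at 80.4, 75.8 and 78.7 TPM in MC38-LM3b. Parental and derivative libraries did not overlap, and the log2 fold changes were 0.48 ± 0.08 and 0.61 ± 0.08 (limma adjusted p 0.00192 and 0.000307). Sod1, the cytosolic copper-zinc dismutase, stood at 586, 653 and 739.8 TPM in MC38-P, at 818, 857 and 627 TPM in MC38-LM3a and at 653, 668 and 645 TPM in MC38-LM3b and was not called. In MC38-LM3a it passed as higher without MC38-LM3a replicate 3, with a log2 fold change of 0.21 over all libraries and 0.44 without both that stand apart (limma adjusted p = 5.69e-05). Like Gstp1 and Gpx4 it has a short transcript (641 bases, against 821 and 995), and all 3 were high in MC38-P replicate 3 and low in MC38-LM3a replicate 3 relative to the other libraries of those groups. Other short members went either way: within MC38-P, replicate 3 was the highest for Prdx4 (990 bases) and the lowest for Gstm5 (945 bases). The part of length in these levels was not tested. Sod2, the mitochondrial manganese dismutase, was 28.8 to 31.3 TPM in MC38-P, 25.5 to 27.9 TPM in MC38-LM3a and 25.2 to 25.6 TPM in MC38-LM3b. It was called in MC38-LM3b only (-0.21 ± 0.08, limma adjusted p = 0.045), under 9 of 18 alternative settings, and the GC and length correction moved it to -0.51 (limma adjusted p = 0.00136).

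**Figure D4:**
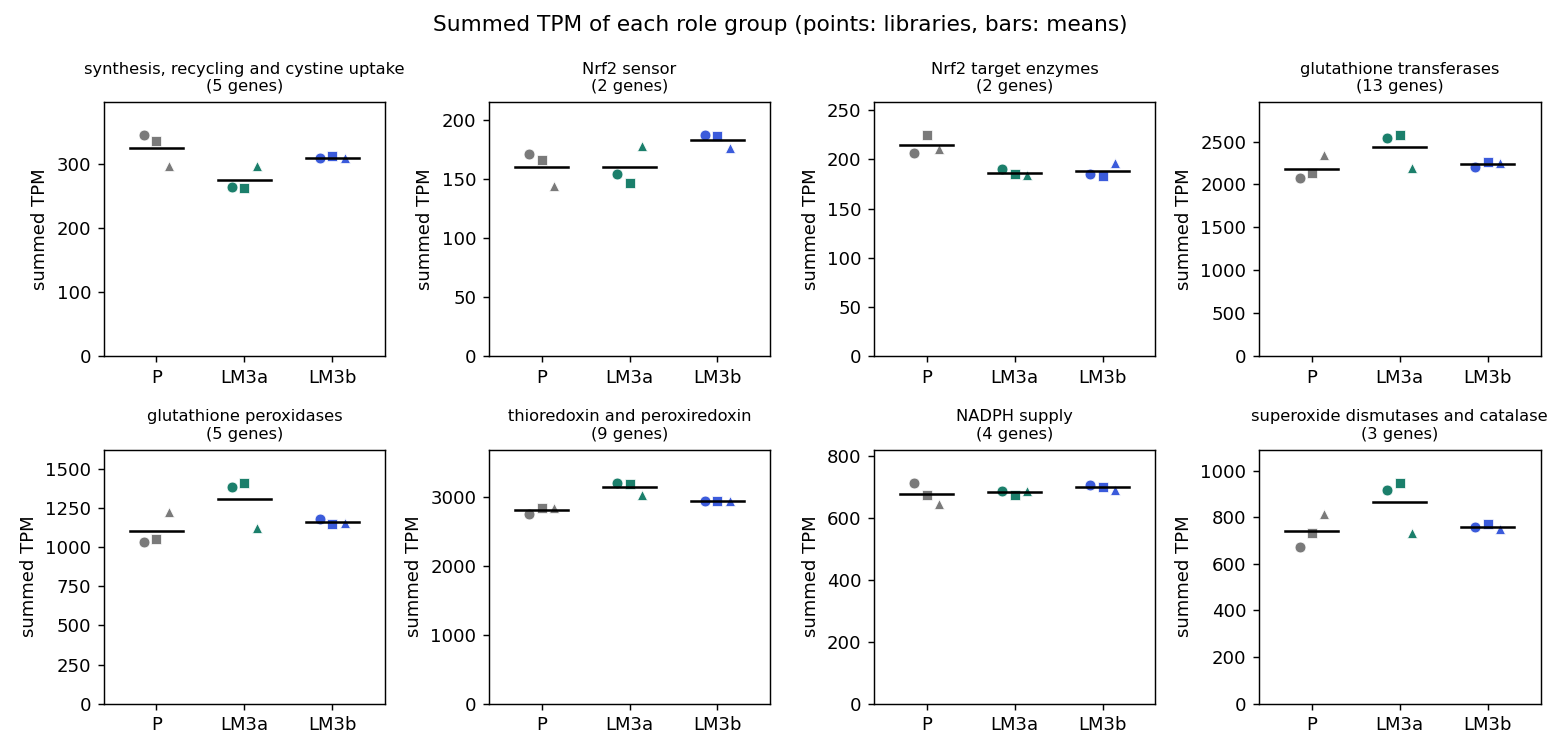
Summed TPM (vertical axes, from 0) of the listed members of each of 8 role groups, with 1 point per library, shapes for the replicate number and bars for the mean of 3 libraries. The sums of transferases, peroxidases and dismutases with catalase follow Gstp1, Gpx4 and Sod1, with MC38-P replicate 3 high and MC38-LM3a replicate 3 low in their groups.

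Between the derivatives, no member was called by limma in either direction or passed the DEG rule, against 0.0532% of all tested genes (0.0354% higher, 0.0177% lower and 0.0266% past the DEG rule as higher), and 8 had an unadjusted p under 0.05, against 38.1% of all genes. In 8 members the 3 MC38-LM3b libraries all lay above the 3 MC38-LM3a libraries (38.4% of all genes), and these include Srxn1, Keap1, Hmox1, Gclc and Slc7a11. In 4 members, Gsto1, Txn1, Prdx3 and Prdx6, they all lay below (3.60% of all genes). The difference of Prdx6 was -0.32 and that of Txn1 -0.17 on the log2 scale, both with a limma adjusted p of 0.119. Without MC38-LM3a replicate 3, 7 members were called higher and 9 lower in MC38-LM3b than in MC38-LM3a, beside 52.2% and 4.24% of all genes, so the count of 0 rests on that library. A call made in 1 derivative alone is therefore not shown to differ between them as fitted here.

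The genes around the pathway were read from 9 further lists of 105 genes, of which 84 were tested. The alternative settings were read for the members alone, so calls from these lists were not checked under them. Of these, 8 rose and 18 fell in both derivatives, beside 13.3% and 9.07% of all genes. In the supply of cysteine and glutamate, 4 of 11 genes fell and 1 rose in both. The fall took in the transporters Slc3a2 (-0.28 and -0.26) and Slc1a4 (-0.78 and -0.72) and the first transsulfuration enzyme Cbs (-0.71 and -0.85). It also took in Ahcy (-0.37 and -0.37), which frees homocysteine. Cth, which releases cysteine at the end of the transsulfuration pathway, rose (0.75 and 0.84, limma adjusted p 0.000817 and 0.000288). These genes were chosen for naming after their values were seen, as were the next ones. Cbs was low, at 0.86 to 2.94 TPM, and Cth stood at 5.05 to 6.15 TPM in MC38-P and 9.09 to 11.2 TPM in the derivatives.

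Of 8 genes listed for mitochondrial NADPH, 4 fell and 1 rose in both derivatives, beside 9.07% and 13.3% of all genes, and of those that fell Mthfd1 encodes a cytosolic folate enzyme. Aldh1l2, a mitochondrial folate enzyme that makes NADPH, was the only gene of the 9 lists past the DEG rule in both derivatives, at 9.36, 8.69 and 6.12 TPM in MC38-P, 2.85, 2.25 and 4.61 TPM in MC38-LM3a and 3.27, 3.81 and 3.00 TPM in MC38-LM3b. All derivative libraries were below the parental ones, with log2 fold changes of -1.12 ± 0.21 and -1.04 ± 0.21 (limma adjusted p 0.00248 and 0.0025). The value in MC38-LM3b was just past the rule. The Aldh1l2 transcript is long (6027 bases), and MC38-P replicate 3 and MC38-LM3a replicate 3, which stood apart along length, lay nearest each other. Idh2 also fell (-0.46 and -0.48), and so did the mitochondrial thioredoxin Txn2 of another list (-0.70 and -0.79, limma adjusted p 0.000124 and 4.54e-05), from 267 to 327 TPM to 166 to 189.7 TPM. Txn2 reduces Prdx3, and both genes were lower in all 6 derivative libraries, but a link between the 2 falls was not tested. In the list of transferases and peroxidases outside the 44, 8 genes were tested, none of them a Gpx gene. Of these 8, Gstm4, Gstt3 and Gsto2 rose and Gsta1 fell in both derivatives. Of 12 further Nrf2 targets, Taldo1 and Tkt rose and Cbr3, Blvrb and Slc48a1 fell in both, and for both lists the shares of all genes are the same 13.3% higher and 9.07% lower.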

How the data were processed

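The authors deposited 1 table per library, 9 in all, giving TPM with 2 decimals for each gene by symbol and NCBI Gene number; no values were pooled. Oligo(dT)-selected RNA was sequenced on the DNBSEQ platform. The submitters' processing notes name HISAT and GRCm39; the quantification tool is not given in the sources used here. The TPM deposited keep no counts, so the depth is unknown and no counting interval is given.

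Groups were taken from the sample titles. Values were analysed as log2(TPM + 1) in R 4.3.3 with limma 3.58.1, using 11287 genes that reached 1 TPM in 3 or more of the 9 libraries, 1 mean per group over all 9 libraries, trended empirical Bayes moderation and Benjamini-Hochberg adjustment over all tested genes. A gene was called at an adjusted p under 0.05, and the DEG rule added an absolute log2 fold change above 1. Fold changes on this scale understate those of low genes. DESeq2, which the authors used, needs counts and was not run. The members and lists were chosen with earlier results of these data known. Members called in both derivatives, past the DEG rule or most abundant in their role group are given in every library, the others by range and count, except Gclc, which was given in every library after its values were seen.

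Alternatives were a pseudocount of 0.1, no filter, only the 2 groups compared, a replicate block, quantile normalization, median centring, loess offsets on GC content and transcript length (span 0.3, longest coding transcript of GENCODE M21, available for 98.3% of tested genes), the block with these offsets, and leaving out each library. Leaving out MC38-P replicate 3 and MC38-LM3a replicate 3 together was chosen after seeing the data. Shared 50-base windows were counted over GENCODE M21 transcripts (GRCm38). Of 50 genes simulated at a log2 fold change of 0.5 among 11287, 28 were recovered in MC38-LM3a against MC38-P and 25 in MC38-LM3b against MC38-P. Of 50 at -0.5, 22 were recovered in each. At a log2 fold change of 1, 45 and 46 were recovered, with 8 and 6 false calls in all. The simulated noise was drawn independently for each gene, without the trend along transcript length seen in the libraries. These rates therefore do not carry over to the data.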

Additional observations from a re-analysis of the deposited data

How the results depend on the processing

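Of the 33 calls against MC38-P, 18 alternatives each left the direction as it was, except for Pgd in MC38-LM3b, which turned to -0.10 with median centring and to -0.021 with GC and length offsets, alone or with the replicate block. Cat, Gpx8, Gstm7, Mgst1, Nqo1, Slc7a11 and Srxn1 were called in both derivatives under every alternative. Median centring ended 11 calls, the 2-group fit 7, the replicate block 5, the block with offsets 5, and offsets or quantile normalization 3 each, while a pseudocount of 0.1 or no filter ended none.

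In MC38-LM3a, the members lower numbered 3 in the 2-group fit (9.7% of all genes). In that derivative the members higher and lower numbered 12 and 8 with quantile normalization, 7 and 7 with centring and 11 and 10 with offsets. They numbered 10 and 10 with the block and offsets. The shares of all genes rose from 14.1% and 13.8% to 21.5% and 20.5%, 19.8% and 20.1%, 26.6% and 25.6%, and 24.8% and 24.3%. In MC38-LM3b, the members lower numbered 12 with quantile normalization, 14 with centring, 14 with offsets and 13 with the block and offsets, where the share of all genes rose from 11.2% to 24.5%, 26.4%, 29.3% and 27.6%, and the members higher 4 with centring (22.9% of all genes). Leaving out 1 library at a time gave 8 to 16 higher and 3 to 9 lower for MC38-LM3a against MC38-P, 8 to 11 higher and 5 to 9 lower for MC38-LM3b, and 0 to 7 higher and 0 to 9 lower in MC38-LM3b against MC38-LM3a, where every count but that without MC38-LM3a replicate 3 was 0. The shares of all genes ran from 10% to 14.2%, 8.57% to 23.2%, 24.5% to 45.1%, 8.07% to 13.8%, 0% to 52.2% and 0% to 4.24%, and without MC38-LM3a replicate 3 the 16 higher and 9 lower in MC38-LM3a stood beside 14.2% and 23.2%. Without MC38-P replicate 3 and MC38-LM3a replicate 3, which stand apart, the counts were 16 higher and 13 lower for the first derivative, 16 and 12 for the second, and 9 and 13 between the derivatives, beside 18.4% and 45.2%, 46.3% and 19%, and 65% and 6.78% of all genes, with none of the 33 calls lost. Leaving out 1 library ended calls of Gclc, Idh1, Me1, Mgst2, Prdx1 and Prdx3 in MC38-LM3a and of Mgst2, Pgd and Sod2 in MC38-LM3b, Pgd and Sod2 with any library but MC38-LM3a replicate 3. The cause of these moves was not tested.

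The replicate numbers did not pair the libraries: correlations of same-numbered libraries ran from -0.66 to 0.07, and the replicate block gave 9 higher and 5 lower in each derivative, beside 9.75% and 9.74% of all genes in MC38-LM3a and 26% and 8.43% in MC38-LM3b. Low genes such as Gstk1 and Gsta4 are the least certain, and the unknown depth sets no floor for the genes listed at 0.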

Other observations

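Values of the remaining lists around the pathway completed the picture of mixed directions. Here too the alternative settings were not read. Of 9 tested genes of glutathione export and breakdown, the aminopeptidases Anpep and Lap3, which act on peptides such as the cysteine-glycine left from glutathione, fell in both derivatives (Anpep -1.13 and -0.74, Lap3 -0.31 and -0.37 on the log2 scale), and none rose in both, where 9.07% of all genes fell and 13.3% rose, the shares for each list here. Anpep stood at 56.9, 51.7 and 39.2 TPM in MC38-P, at 20.0, 17.5 and 29.4 TPM in MC38-LM3a and at 29.2, 29.7 and 27.7 TPM in MC38-LM3b, with no overlap between parental and derivative libraries. Of 16 glutaredoxins and other thioredoxin genes, Msrb1 rose and Txn2 and Txnrd3 fell in both derivatives.

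Of 9 tested partners and regulators of Nrf2, Maff, a small Maf partner, and Rbx1, a subunit of the ubiquitin ligase that takes Nrf2 to degradation, fell in both derivatives (Maff -0.51 and -0.29, Rbx1 -0.54 and -0.55). Bach1, a repressor at antioxidant response elements, was called in MC38-LM3b (0.71, limma adjusted p = 0.0039) and not in MC38-LM3a (0.34, limma adjusted p = 0.128), and the difference between the derivatives was not called. Of 8 tested ferroptosis genes none was called in both derivatives. The iron importer Tfrc and the iron exporter Slc40a1 fell in MC38-LM3a (-0.43 and -0.47). Aifm2, an oxidoreductase that opposes lipid peroxidation, rose in MC38-LM3b (0.28, limma adjusted p = 0.0475), where the median gene rose by 0.21. The calls of Aifm2 and Bach1 were not checked with centring. These genes were named after their values were seen, and no explanation was tested.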
